A study of Sus scrofa with 95 samples.

Results

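The comparison described here is between the left ventricles of infant pigs that went through cardiopulmonary bypass with linrodostat and those of pigs that had anesthesia alone. Its members were chosen by organ and arm from the sample labels, as the heart libraries of the linrodostat arm and the heart libraries of the control arm, which gave 12 of the 95 libraries of the series. The 4 linrodostat animals (12 and 24 male, 18 and 20 female) had bypass, deep hypothermic circulatory arrest for 75 min and 75 mg of linrodostat. The 8 control animals (1, 7, 10 and 26 male, 4, 13, 14 and 15 female) had neither bypass, arrest nor drug. Another 7 animals (2, 9, 11 and 25 male, 6, 19 and 21 female) had the same bypass and 75 min of arrest with no drug, and they serve as the other set of bypass hearts. All were infant pigs of 5 to 10 kg, no strain or age in days is given in the sources used here, and no animal was in more than 1 arm. Hearts were taken after euthanasia with pentobarbital in every arm. No arm had the drug without bypass, so against control the drug and the bypass cannot be told apart in the linrodostat animals.

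Linrodostat blocks the enzyme IDO1, by which cells turn tryptophan into kynurenines, and kynurenine can activate the aryl hydrocarbon receptor. In bypass with circulatory arrest the body is cooled, the heart is stopped and later reperfused, and blood is in contact with the pump circuit. Ventricular muscle is known to answer load, ischemia and catecholamines with changes in genes of the Z-disc (the structure that anchors actin filaments at the ends of each sarcomere), of small heat shock proteins that protect filament proteins, and of cyclic AMP signalling.

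Total counts per heart library were 20.0 to 27.2, in units of 1e6. All 19 hearts carry the same batch label, and no library was a copy of another. Markers of ventricular muscle summed to 103700 to 126200 CPM (counts per 1e6, scaled for library size and composition but not for gene length) in control hearts and to 99200, 107000, 115000 and 113600 CPM in linrodostat animals 12, 18, 20 and 24. Of 11 neutrophil markers 8 were in the count data and 4 were tested, and these 4 summed to at most 5.56 CPM in any heart. Of 5 markers each of lung, kidney and ileum, none reached the level needed for a test, and 2, 3 and 1 of them had no count in any heart. Of 5 liver markers, however, 3 were tested. They summed to 25.4 to 51.9 CPM in controls and to 64.7, 44.6, 18.8 and 33.25 CPM in linrodostat animals 12, 18, 20 and 24. Most of this was APOA1, with a mean before TMM scaling of 30.7 CPM in controls and 38.8 with linrodostat. The 4 linrodostat hearts did not lie together: on the first principal component, which held 20.24% of the variance, animals 12 and 18 were at -13.8 and -26.2, animals 20 and 24 at 36.2 and 58.5, the controls between -55.6 and -11.0, and the other bypass hearts between -12.2 and 62.1.

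Against control, the linrodostat hearts had more RNA for the Z-disc protein PDLIM3, for cardiac actin, for the cyclic AMP phosphodiesterases PDE4B and PDE4D and the receptor kinase GRK5, for the hemoglobin scavenger receptor CD163 and for matrix and transport genes such as NPNT and SLC22A3. They had less RNA for the ubiquitin ligase adaptor ASB18, for the corepressor RCOR2 and for the cholesterol synthesis enzyme MVD. In all, 304 of 14890 genes tested passed an adjusted p of 0.05 (edgeR quasi-likelihood test, 2-sided, Benjamini-Hochberg over all genes tested, as for every adjusted p below unless another tool is named), which is 2.04%. Of these, 161 were higher (1.08%) and 143 lower (0.960%), and 162 changed at least 2-fold, 90 upward and 72 downward. In 207 of the 304, all 4 linrodostat hearts lay beyond all 8 controls, 88 above and 119 below. Over all genes tested 499 did so (3.35%), 1.29% above and 2.06% below. The number of calls was 75 without animal 24, 153 without animal 20, and 183 to 190 without control 7, 10, 14 or 15, while DESeq2 called 693. With any 1 of the 12 animals left out in turn, 56 genes kept their call throughout.

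**Figure D1:**
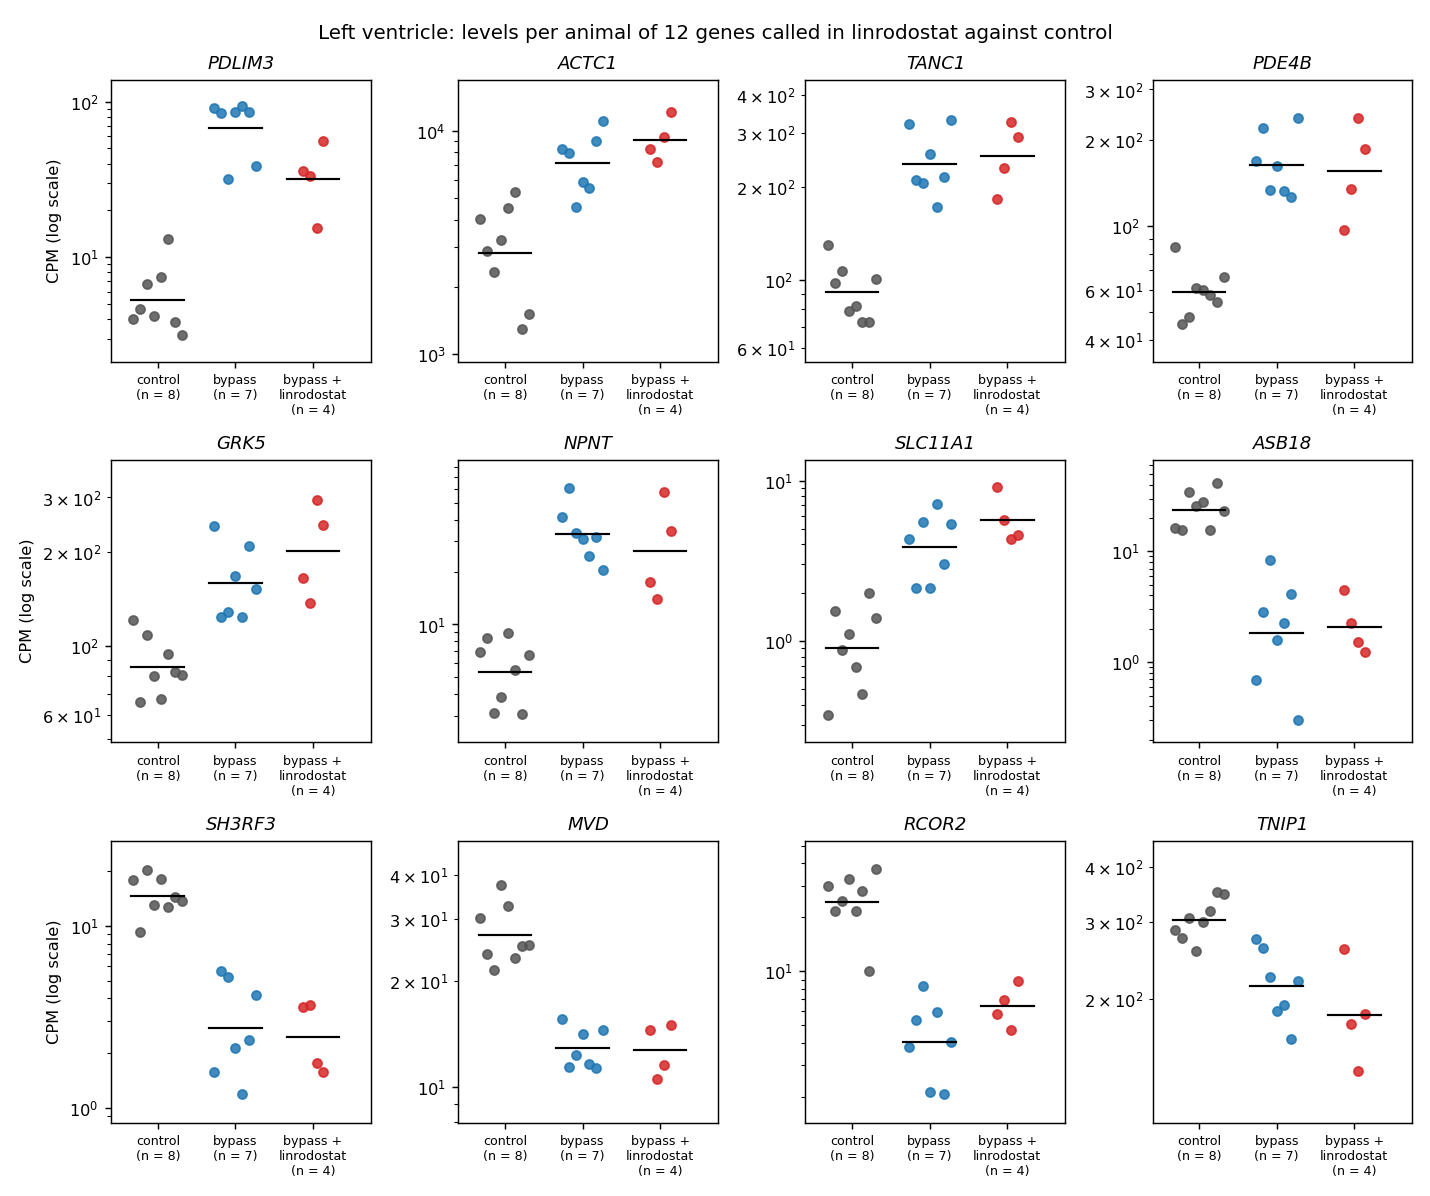
Levels of 12 genes in CPM on a log axis, with 1 point per animal and a bar at the geometric mean of each arm. In 11 of the 12 panels the 4 linrodostat hearts lie wholly above or below the 8 control hearts, and TNIP1 overlaps by 1 animal.

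PDLIM3, whose PDZ and LIM domains bind alpha-actinin at the Z-disc (RefSeq, Sscrofa11.1, chromosome 15, 46516178 to 46546658), had 3.16 CPM in the lowest, 4.43 in the median and 13.2 in the highest control. It had 35.6, 33.3, 15.4 and 56.0 CPM in linrodostat animals 12, 18, 20 and 24, and 31.6 to 93.3 CPM with a median of 85.1 in bypass without drug. All 11 bypass hearts were above every control. On the log2 scale the fold change was 2.57 ± 0.37 (SE; adjusted p = 0.00202) with linrodostat and 3.63 ± 0.35 without it, and the call held with any 1 of the 12 animals left out. SYNPO2, an actin-bundling Z-disc protein, had 25.3 to 51.9 CPM (median 36.7) in controls and 57.3, 69.8, 89.5 and 87.4 CPM with linrodostat, again with no overlap. The fold change was 1.05 ± 0.20 on the log2 scale (adjusted p = 0.00971, and 0.0532 without animal 24). PDLIM5, a relative of PDLIM3, had 649 to 842 CPM in controls and 812, 933, 1341 and 1351 CPM with linrodostat, where animal 12 overlapped the controls (0.60 ± 0.14, adjusted p = 0.0285, and 0.148 without animal 24). Removing animal 20, control 15 or control 26 also ended the PDLIM5 call.

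Of 31 tested genes of the Z-disc and intercalated disc, these 3 were higher in the linrodostat hearts, none was lower and 28 did not pass. The share called over all genes tested was 2.04%. The median log2 fold change of the list was 0.24, beside -0.01 over all genes tested. Its summed level was 20440 to 25330 CPM in controls and 21850, 22130, 30830 and 29540 CPM in animals 12, 18, 20 and 24, and of these 4 only animals 20 and 24 exceeded every control. In bypass without drug, where 11.9% of all genes were called (6.39% higher, 5.53% lower), 15 of the 31 were higher and none lower, with a median of 0.49. XIRP1, an actin-binding protein of the intercalated disc, was among those not called with linrodostat: controls had 174 to 490 CPM (median 391), linrodostat hearts 659, 409, 496 and 433, and the other bypass hearts 609 to 1172 (median 850). XIRP1 had a log2 fold change of 0.42 ± 0.23 (adjusted p = 0.391) against 1.19 ± 0.20 without drug. CSRP3, the muscle LIM protein, had 264, 319, 365 and 610 CPM with linrodostat, and only animal 24 was above every control. MYPN, which links titin to alpha-actinin, had 58.4, 57.1, 125 and 136 CPM with linrodostat and log2 fold changes of 0.47 ± 0.31 (adjusted p = 0.514) with and 1.35 without drug.

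Among 17 contractile proteins, ACTC1 alone passed in edgeR, where 2.04% of all genes did, and DESeq2 called 3 and limma-voom 1. ACTC1 is the actin of heart muscle, and its coding sequence is close to that of skeletal actin, so reads could be split between them. Controls had 1293 to 5316 CPM (median 3055), the linrodostat hearts 8246, 7248, 9335 and 12080, and the other bypass hearts 4558 to 11090 (median 7975). All 4 linrodostat hearts were above every control (log2 fold change 1.56 ± 0.30, adjusted p = 0.00971, and 0.0532 without animal 24). The skeletal actin gene ACTA1 had a log2 fold change of 0.94 (adjusted p = 0.168). The slow myosin MYH7, the light chain MYL2 and troponin TNNT2 had log2 fold changes of -0.16, 0.00 and 0.19, none of which passed.

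Calcium handling had 2 called genes among 28 tested, where 2.04% of all genes were called, with a list median of 0.06. ATP2A2, the pump that returns calcium to the sarcoplasmic reticulum (chromosome 14, 31674659 to 31744981), had 1148 to 2482 CPM (median 1863) in controls and 3273, 2687, 4007 and 3795 CPM with linrodostat. The groups did not overlap, and the log2 fold change was 0.88 ± 0.20 (adjusted p = 0.027). Its call was lost without control 14 or linrodostat animal 12, 20 or 24, at most with an adjusted p of 0.101. Phospholamban, PLN, the inhibitor of that pump, had 526.5, 442, 707 and 887 CPM against 359 to 752 in controls and did not pass (0.50 ± 0.22, adjusted p = 0.256). GJA5, the gap junction protein connexin 40, had 7.49 to 13.7 CPM in controls and 19.3, 22.8, 13.3 and 17.3 CPM with linrodostat (0.79 ± 0.17, adjusted p = 0.0235, and 0.0786 without animal 18). It also lost its call without animal 12 or 24.

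Adrenergic and cyclic AMP genes gave 4 of 17 tested members higher and none lower, with a list median of 0.22. Over all genes tested 1.08% were called higher and 0.960% lower. PDE4B, a phosphodiesterase that degrades cyclic AMP, had 45.6 to 84.6 CPM (median 58.6) in controls and 97.2, 135, 239 and 186 CPM with linrodostat. Its relative PDE4D had 69.4 to 150 CPM (median 93.0) in controls and 152, 161, 328 and 292 CPM with linrodostat. GRK5, a kinase that phosphorylates beta-adrenergic receptors, had 66.0 to 121 CPM (median 81.5) in controls and 166, 138, 294 and 245 CPM with linrodostat. In each of the 3 genes all 4 linrodostat hearts were above every control and animals 20 and 24 were the highest of the 4. Their log2 fold changes were 1.46 ± 0.21 (adjusted p = 0.00195), 1.24 ± 0.22 (adjusted p = 0.00544) and 1.27 ± 0.21 (adjusted p = 0.00395), and each kept its call with any 1 of the 12 animals left out. The fourth gene was PRKAR1A, a regulatory subunit of protein kinase A, with a log2 fold change of 0.76 ± 0.19 (adjusted p = 0.0367, and 0.158 without animal 24). Removing animal 20 or control 7, 10, 13, 14 or 15 ended the PRKAR1A call too. In bypass without drug, where 11.9% of all genes were called, 7 of the 17 were higher and none lower. There PDE4B, PDE4D and GRK5 had log2 fold changes of 1.5, 1.41 and 0.91.

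The smallest adjusted p in the comparison belonged to TANC1, a scaffold protein (chromosome 15, 65920168 to 66166000). It had 72.8 to 130 CPM (median 89.9) in controls, 184, 232, 326 and 292 CPM with linrodostat and 172 to 333 CPM (median 216) in bypass without drug, so that every bypass heart exceeded every control. TANC1 had a log2 fold change of 1.48 ± 0.19 (adjusted p = 0.00129). SLC22A3, a transporter that takes up catecholamines and other organic cations (chromosome 1, 7105486 to 7207395), had 12.3 to 31.0 CPM in controls and 57.4, 50.9, 78.4 and 88.0 CPM with linrodostat (1.82 ± 0.25, adjusted p = 0.00195). FGL2, a fibrinogen-like prothrombinase, had 98.7 to 149 CPM in controls and 188, 266, 206 and 324 CPM with linrodostat (1.00 ± 0.14, adjusted p = 0.00195). NPNT, the matrix protein nephronectin (chromosome 8, 115768963 to 115861170), had 3.06 to 8.90 CPM in controls and 17.4, 13.9, 57.6 and 34.6 CPM with linrodostat (2.41 ± 0.35, adjusted p = 0.00202). The histone deacetylase HDAC8, the RNA-binding protein RBPMS and the transcription factor MITF were also above every control in all 4 hearts, by log2 fold changes of 0.98, 0.92 and 0.79. All 7 genes of this group kept their calls with any 1 of the 12 animals left out.

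Among the genes that fell was ASB18, a muscle adaptor of cullin ubiquitin ligases (chromosome 15, 136049744 to 136116084). It had 15.6 to 41.6 CPM (median 24.4) in controls, 4.47, 2.27, 1.52 and 1.22 CPM with linrodostat and 0.303 to 8.30 CPM in bypass without drug. All 11 bypass hearts were below every control, and the log2 fold change was -3.38 ± 0.64 with linrodostat (adjusted p = 0.00971, and 0.0531 without animal 24). KBTBD13, an adaptor of cullin 3 in muscle, had 1.02 to 3.27 CPM in controls and 0.356, 0.477, 0.288 and 0.175 CPM with linrodostat (-2.64 ± 0.67, adjusted p = 0.0436). The KBTBD13 call was lost without any 1 of 11 of the 12 animals, control 4 being the exception, with an adjusted p of 0.148 without animal 24. It was the only member called in edgeR among 21 listed ligases and adaptors tested (0 higher, 1 lower), and DESeq2 called 2 and limma-voom 1. The share called in edgeR over all genes was 2.04%. The median log2 fold change of the 21 was -0.23 with linrodostat and -0.21 without drug. In bypass without drug, where 11.9% of all genes were called, 2 were higher and 4 lower. ASB18 was not on that list, nor were ASB5 and ASB16, other members of its family, which were picked out after their values were seen and had log2 fold changes of -1.76 and -1.35 (adjusted p = 0.00971 and 0.00911). ASB5 had an adjusted p of 0.0532 without animal 24.

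SH3RF3, a ubiquitin ligase and scaffold of stress kinases, had 9.27 to 20.4 CPM (median 14.0) in controls and 3.60, 3.70, 1.77 and 1.57 CPM with linrodostat (-2.48 ± 0.39, adjusted p = 0.00236). RCOR2, a corepressor that works with the demethylase LSD1, had 10.1 to 37.0 CPM in controls and 5.82, 6.92, 4.70 and 8.79 CPM with linrodostat (-1.97 ± 0.36, adjusted p = 0.00718). MVD, which makes isopentenyl diphosphate for cholesterol synthesis (chromosome 6, 1008100 to 1014303), had 21.6 to 37.5 CPM in controls and 14.5, 10.6, 11.6 and 15.0 CPM with linrodostat (-1.09 ± 0.16, adjusted p = 0.00202). None of the 3 overlapped the controls, and all 3 calls held with any 1 of the 12 animals left out. The same was true of AZIN2, an antizyme inhibitor of polyamine metabolism (-2.40 ± 0.46, adjusted p = 0.00967), and of PHACTR3 and DNTT, whose levels with linrodostat were at most 0.233 and 0.317 CPM and whose fold changes therefore rest on few counts. ADORA1, the adenosine A1 receptor, had 1.87 to 4.68 CPM in controls and 0.356, 0.836, 0.783 and 0.233 CPM with linrodostat (-2.29 ± 0.56, adjusted p = 0.0367). ADORA1 lost its call without control 7, 10 or 13 or any 1 linrodostat animal, with an adjusted p of up to 0.131. GCNT3, CDHR4, ELFN2 and CASKIN1 completed the 12 lowest fold changes by the naming rule, at -2.42, -2.50, -1.89 and -1.86, each with all 4 linrodostat hearts below every control. All 4 of these lost their calls without animal 12 or 24, ELFN2 also without 20, CDHR4 and CASKIN1 also without 18, CDHR4 without control 7 or 15, and CASKIN1 without control 1, 7, 10, 13 or 15. Their adjusted p then reached 0.0581, 0.11, 0.0636 and 0.117.

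In fatty acid metabolism 1 of 33 tested genes was higher and 1 lower, where 2.04% of all genes were called, with a median of -0.09. LPL, the lipase that frees fatty acids from lipoproteins, had 1044, 614, 1231 and 1528 CPM with linrodostat and 476 to 828 CPM in controls (0.86 ± 0.22, adjusted p = 0.0436). EHHADH, an enzyme of peroxisomal fatty acid oxidation, had 9.34, 7.36, 11.3 and 9.26 CPM with linrodostat and 12.0 to 23.4 CPM in controls (-0.85 ± 0.21, adjusted p = 0.0399). Either call was lost without any 1 of 10 of the 12 animals, the exceptions being control 4 and animal 18 for LPL and control 10 and control 26 for EHHADH. In bypass without drug, where 11.9% of all genes were called, 1 gene of this list was higher and 9 were lower. MLYCD, malonyl-CoA decarboxylase, and the carnitine carrier SLC25A20 had log2 fold changes of -1.88 (adjusted p = 0.0606) and -0.53 (adjusted p = 0.32) with linrodostat, and -1.77 and -1.06 without it. None of 35 nuclear oxidative phosphorylation genes was called with linrodostat in edgeR, DESeq2 or limma-voom, and 2 had an unadjusted p under 0.05 in edgeR. Of 34 glycolysis and hypoxia genes, the glycolytic enzyme PGAM1 was higher (0.97 ± 0.24, adjusted p = 0.0385, and 0.222 without animal 24) and the prolyl hydroxylase EGLN3 was lower (-0.62 ± 0.16, adjusted p = 0.045, and 0.17 without animal 24). PGAM1 lost its call in 7 of the 12 removals (controls 4, 7, 13, 14 and 15, animals 20 and 24) and EGLN3 in 10, control 15 and animal 12 being the exceptions.

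Of 29 tested heat shock proteins and cochaperones, 1 was higher and none lower in the linrodostat hearts in edgeR (median 0.18), where 2.04% of all genes were called. DESeq2 called 3 of the 29 and limma-voom 1. In bypass without drug, where 11.9% of all genes were called, 14 were higher and none lower (median 0.36). The list summed to 5395 to 6693 CPM in controls and to 6033, 6572, 7651 and 8309 CPM in linrodostat animals 12, 18, 20 and 24, the first 2 of them within the controls. CRYAB, the small heat shock protein that guards desmin and titin, had 382 to 697 CPM (median 550) in controls, 687, 871, 908 and 1175 CPM with linrodostat and 845 to 1563 CPM (median 1113) without drug. Its log2 fold change was 0.71 ± 0.18 (adjusted p = 0.0367, and 0.178 without animal 24), and removing control 7, 10, 13 or 15 or animal 18 or 20 also ended the call. HSPB1, another small heat shock protein of muscle (chromosome 3, 10038074 to 10039441), had 442 to 546 CPM (median 500.4) in controls, 584, 537, 575 and 637 CPM with linrodostat and 730 to 1240 CPM (median 901) without drug. The linrodostat hearts were thus all below every other bypass heart, and 3 of the 4 were above every control. How many of all genes separated the 2 sets of bypass hearts in this way was not counted. The log2 fold change against control was 0.23 ± 0.13 (adjusted p = 0.418) with linrodostat and 0.95 ± 0.11 without drug. The difference between the 2 sets of bypass animals was -0.72 with a 95% interval from -1.01 to -0.43, not adjusted for the number of genes. This difference did not pass over all genes (edgeR adjusted p = 0.5) and did pass in DESeq2 (adjusted p = 0.000894). DNAJA4, a cochaperone, had 87.1, 70.8, 79.4 and 128 CPM with linrodostat and 86.6 to 207 CPM without drug, a difference of -0.78 (interval -1.23 to -0.32, adjusted p = 0.72). HSPA4 and HSPH1, exchange factors of heat shock protein 70, had log2 fold changes of 0.22 and 0.35 with linrodostat, neither of which passed, and of 0.87 and 0.91 without drug.

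**Figure D2:**
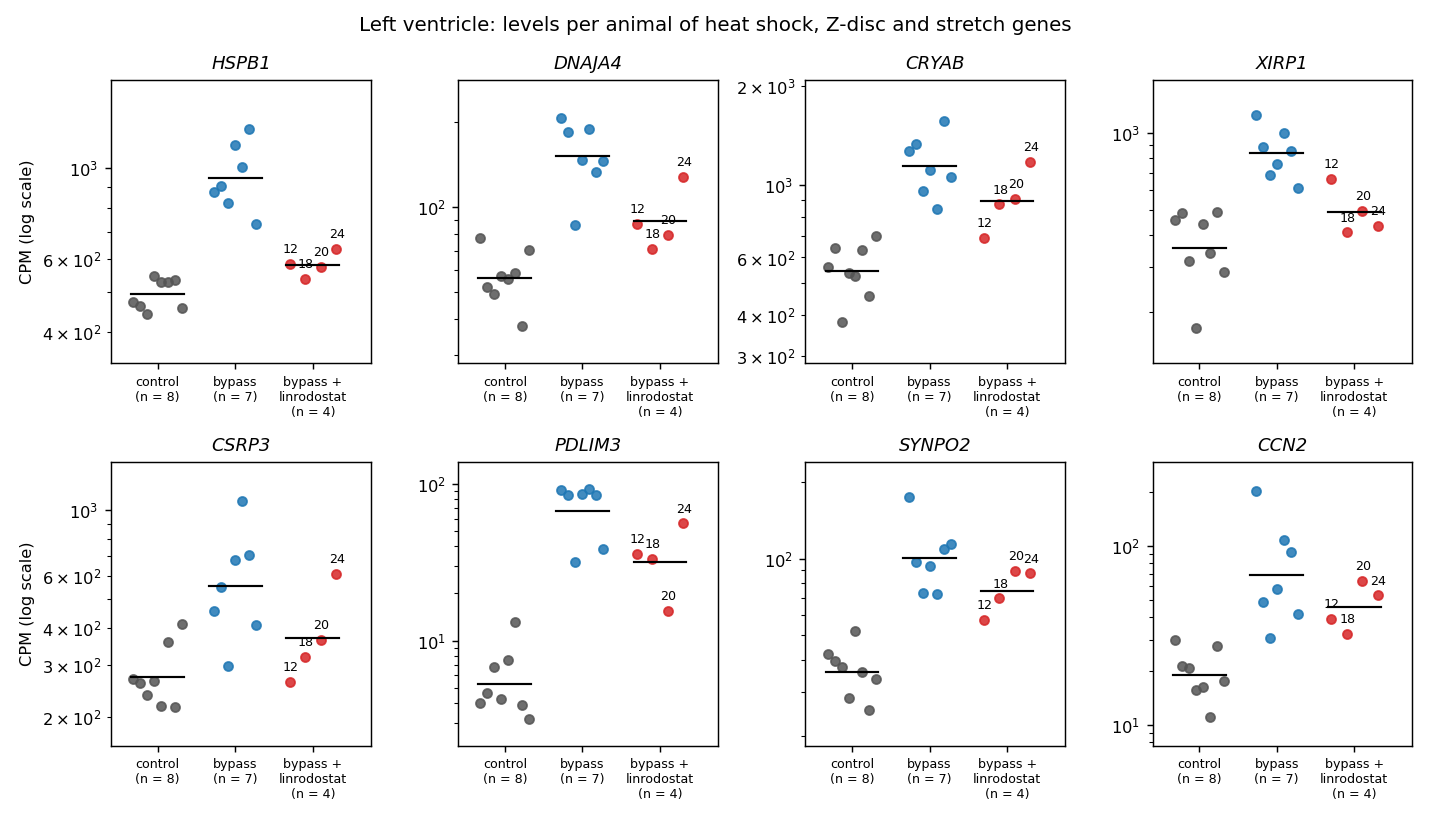
Levels of 8 heat shock, Z-disc and stretch-responsive genes in CPM on a log axis, with 1 point per animal, a bar at the geometric mean of each arm and the numbers of the linrodostat animals. For HSPB1 the 4 linrodostat hearts, at 537 to 637 CPM, lie below all 7 bypass hearts without drug, whereas for PDLIM3 and SYNPO2 they lie above all 8 controls.

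CCN2, a matricellular growth factor that responds to stretch, had 38.9, 32.2, 63.6 and 52.9 CPM with linrodostat, above all controls (at most 29.8 CPM), and yet did not pass (1.23 ± 0.38, adjusted p = 0.101). The natriuretic peptides NPPA and NPPB had log2 fold changes of 1.35 ± 0.55 and 1.97 ± 0.80 (adjusted p = 0.227 and 0.228). NPPB had 8.75, 5.21, 76.3 and 157 CPM in animals 12, 18, 20 and 24, so that only animals 20 and 24 were above all controls. None of 20 cardiac stress genes was called in edgeR (median 0.36), although 9 had an unadjusted p under 0.05, and DESeq2 called 2 and limma-voom 0.

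CD163, SLC11A1, HMOX1 and CD14 were each higher. CD163 is the macrophage receptor for hemoglobin bound to haptoglobin (chromosome 5, 63300200 to 63334497) and had 21.6 to 82.8 CPM (median 33.4) in controls, 324, 144, 84.0 and 81.3 CPM with linrodostat and 65.1 to 131 CPM without drug. Animal 24 lay just under the highest control, and the log2 fold change was 1.99 ± 0.35 (adjusted p = 0.00714) and kept its call with any 1 of the 12 animals left out (1.37, adjusted p = 0.0359, without animal 12). SLC11A1, a metal transporter of phagocytes, had 0.344 to 2.00 CPM in controls and 9.11, 5.69, 4.33 and 4.60 CPM with linrodostat (2.48 ± 0.39, adjusted p = 0.00236), and its call held in those fits as well. HMOX1, which degrades heme, had 59.6, 50.8, 31.5 and 23 CPM with linrodostat and 2.38 to 5.92 CPM in 7 controls, but 34.2 CPM in control 15. Its log2 fold change was 2.44 ± 0.61 (adjusted p = 0.0459), and the call was lost without any 1 animal other than control 15, with an adjusted p of up to 0.111. CD14, a receptor for bacterial lipopolysaccharide, had 32.1, 18.8, 11.4 and 12.6 CPM against 6.79 to 14.2 in controls (1.01 ± 0.22, adjusted p = 0.0222, and 0.114 without animal 12). Beside these, 16 macrophage and monocyte markers summed to 303 to 987 CPM in controls and to 1003, 741, 339 and 335 CPM with linrodostat. Only CD163 and CD14 of the 16 were called in edgeR, where 2.04% of all genes were (DESeq2 called 4 and limma-voom 2). Of the 16, 5 had a log2 fold change above 0, and the list median was -0.15. In bulk tissue fewer cells of a type and less RNA per cell cannot be told apart. HMOX1 was the only member called in edgeR of 16 tested NRF2 targets and metallothioneins, of which DESeq2 called 2 and limma-voom 1. TXNRD1, thioredoxin reductase, had a log2 fold change of 0.83 ± 0.23 (adjusted p = 0.0626).

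Among the 12 largest rises were also SRARP, TGM3, AKR1C8 and NRCAM, at log2 fold changes of 4.42, 3.38, 2.76 and 2.41. SRARP had no count in animal 20 and 5.98 CPM in animal 12, and it lost its call in 7 of the 12 removals, with an adjusted p of 0.191 without animal 12. The adjusted p was 0.126 for TGM3 without animal 12, 0.0932 for AKR1C8 without animal 18 and 0.0594 for NRCAM without animal 24. PTX3, a secreted pentraxin of innate immunity (chromosome 13, 97273594 to 97279570), had 1.88 to 8.35 CPM (median 2.71) in controls and 191, 48.5, 2.72 and 11.6 CPM with linrodostat. Animal 20 was thus at the control median, and the log2 fold change of 4.16 ± 0.80 (adjusted p = 0.0134) was 2.56 without animal 12 (adjusted p = 0.0785). Of 23 IL6 and IL1 response genes tested, 3 were higher and none lower in edgeR (median 0.28), where 2.04% of all genes were called. DESeq2 called 5 of the 23 and limma-voom 1. In bypass without drug, where 11.9% of all genes were called, 6 were higher and none lower. The receptor IL1R1 had 27.99, 23.4, 12.3 and 15.9 CPM against 6.91 to 12.6 in controls (1.01 ± 0.24, adjusted p = 0.0353). The oncostatin M receptor OSMR had 18.8, 29.6, 14.6 and 14.0 CPM against 7.21 to 12.1 (0.92 ± 0.23, adjusted p = 0.0436). CEBPD, a transcription factor of the acute phase response, had 143, 155, 47.6 and 47.4 CPM against 20.9 to 59.1 (1.32 ± 0.33, adjusted p = 0.043). Of these 3, OSMR alone did not overlap the controls. Without 1 animal their adjusted p reached 0.124 for IL1R1 (animal 12), 0.188 for OSMR (animal 18) and 0.148 for CEBPD (animal 18), and respectively 8, 11 and 8 of the 12 removals ended the call. The calls were kept without control 1, 10 or 14 or animal 20 for IL1R1, without control 1 for OSMR, and without control 14 or 26 or animal 20 or 24 for CEBPD. The interleukin 4 receptor IL4R did not pass (0.73 ± 0.22, adjusted p = 0.0876). TNIP1, an inhibitor of NF-kB signalling, was the only called gene of 24 on the NF-kB list and was lower, at 260, 176, 137 and 184 CPM against 257 to 350 in controls (-0.69 ± 0.16, adjusted p = 0.0324, and 0.123 without animal 20). Removing animal 18 or 24 or control 7, 13, 14, 15 or 26 ended that call too.

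Type I interferon genes were all below 0 and none passed. The 35 tested genes had a median log2 fold change of -1.42, beside -0.01 for all genes, with 0 called higher and 0 lower by edgeR. Of the 35, 27 had an unadjusted p under 0.05, and DESeq2 called 6 and limma-voom 0. In bypass without drug, where 11.9% of all genes were called, 6 were lower and the median was -1.27. The summed level of the 35 genes was 1061 to 7286 CPM in controls and 617, 1769, 820 and 337 CPM in animals 12, 18, 20 and 24, so that animal 18 lay among the controls. ISG15, a ubiquitin-like interferon-induced protein, had 23.4 to 626 CPM in controls, with the highest value in control 15, and 8.39, 49.7, 17.6 and 7.39 CPM with linrodostat (-2.87 ± 1.09, adjusted p = 0.192). MX1 and IRF7 had log2 fold changes of -1.89 ± 0.78 and -2.58 ± 0.86 (adjusted p = 0.236 and 0.135). IFIT2 had 20.9, 29.4, 10.5 and 11.2 CPM against 14.3 to 154 in controls (-1.22 ± 0.54, adjusted p = 0.269). Among 21 antigen presentation and interferon gamma genes none was called by edgeR either (median -0.72, 5 with an unadjusted p under 0.05, 1 called by DESeq2 and 0 by limma-voom). Their summed level set the animals apart: it was 2707 and 2769 CPM in animals 12 and 18, within the controls (1722 to 5133, median 2412), and 1012 and 947 CPM in animals 20 and 24, below every control.

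**Figure D3:**
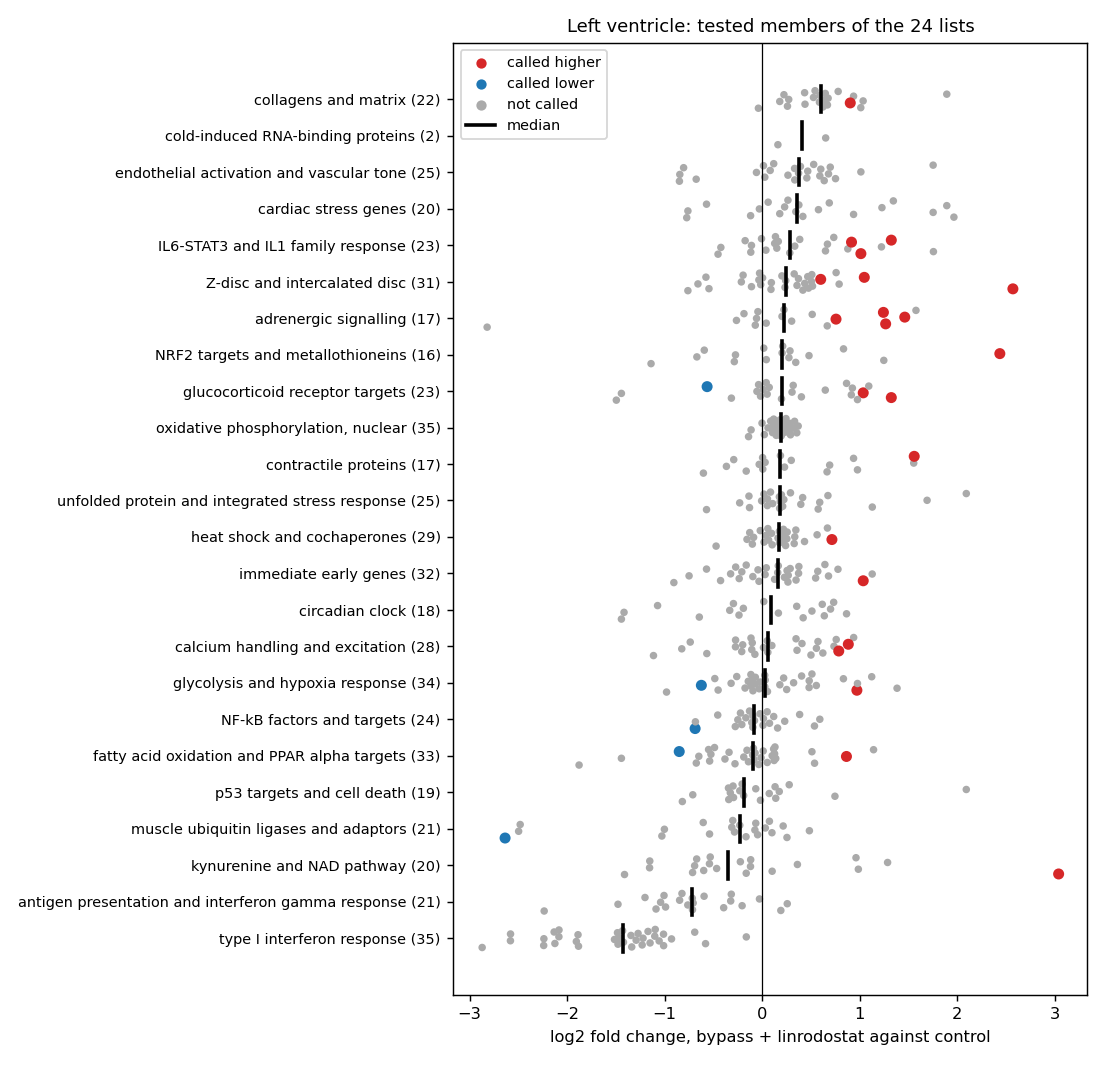
Log2 fold change of linrodostat against control for every tested member of 24 gene lists, 1 point per gene, with the number tested in brackets and a black bar at the median. The type I interferon list lies wholly below 0 with no gene called by edgeR (DESeq2 called 6), and the largest number of called genes in a list, 4 of 17, is in adrenergic signalling. Of all genes tested 2.04% were called.

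Of 23 glucocorticoid genes 3 were called in edgeR, of 32 immediate early genes 1 and of 18 clock genes 0, where 2.04% of all genes were. DUSP1, a phosphatase of MAP kinases and an immediate early gene, had 12.2 to 18.0 CPM in controls and 49.2, 26.5, 17.6 and 28.5 CPM with linrodostat (1.04 ± 0.25, adjusted p = 0.0332, and 0.149 without animal 12). The DUSP1 call was lost without control 4, 7, 14 or 15 or animal 12 or 24. DUSP1 was the only gene called in edgeR of 32 immediate early genes (DESeq2 called 3 and limma-voom 0). NR3C1, the glucocorticoid receptor itself, was lower, at 41.6 to 66.3 CPM in controls and 33.0, 35.6, 40.0 and 28.1 CPM with linrodostat, with no overlap (-0.57 ± 0.14, adjusted p = 0.0357, and 0.151 without animal 24). That call was lost without animal 12 or 18 or control 7, 14 or 15 as well. On the list of 23 glucocorticoid genes, DUSP1 and CEBPD were higher and NR3C1 lower, while FKBP5 and PER1, direct targets of the receptor, had log2 fold changes of 0.91 ± 0.38 and 0.87 ± 0.33 that did not pass. None of 18 clock genes was called with linrodostat in edgeR (10 had an unadjusted p under 0.05, DESeq2 called 3 and limma-voom 0). In bypass without drug, where 11.9% of all genes were called, 4 were higher and 2 lower. CRY1 and DBP had log2 fold changes of 0.73 and -1.44 with linrodostat (adjusted p = 0.124 and 0.0608) and of 1.24 and -1.65 without it. The cold-induced RNA-binding proteins RBM3 and CIRBP had log2 fold changes of 0.65 and 0.16 and did not pass.

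The drug's target was near the limit of detection. IDO1 had at most 0.666 CPM in any control and 0.317, 0.119, 0.00 and 0.00 CPM with linrodostat, and its log2 fold change of -1.41 ± 0.97 did not pass (adjusted p = 0.53). TDO2, the other enzyme of that step, had 0 to 5 counts per heart and was not tested, like IDO2, AADAT, ACMSD, QPRT, NNMT and AHRR. KMO and KYNU, which act on kynurenine, had log2 fold changes of -0.60 ± 0.46 and -0.69 ± 0.55 (adjusted p = 0.58 and 0.605). Of 20 tested genes of the kynurenine, NAD and aryl hydrocarbon receptor list, CYP1A1 alone was called in edgeR, where 2.04% of all genes were. Of the 20, 8 had an unadjusted p under 0.05, and DESeq2 called 5 and limma-voom 0. CYP1A1, a target of that receptor, had at most 1.19 CPM in controls and 2.02, 0.716, 16.1 and 1.22 CPM with linrodostat. Its log2 fold change of 3.04 ± 0.74 (adjusted p = 0.0382) was 1.12 without animal 20 (adjusted p = 0.554), and it lost its call in 7 of the 12 removals in all (controls 4, 7, 10, 13 and 26, animals 20 and 24). CYP1B1, another target, had a log2 fold change of 0.96 (adjusted p = 0.199), with 10.5, 9.43, 3.38 and 9.20 CPM, so that animal 20 was highest for CYP1A1 and lowest for CYP1B1. NMRK2, a muscle kinase that makes NAD from its riboside, had 0.99 ± 0.29 with linrodostat (adjusted p = 0.0849) and 1.36 without drug.

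In edgeR 1 of 10 endothelial markers, 1 of 22 collagen and matrix genes and 2 of 11 smooth muscle markers were called. Over all genes 2.04% were called. The highest levels of vessel and matrix genes were mostly those of animals 12 and 18. PECAM1, the endothelial junction protein CD31, had 126 to 214 CPM in controls and 444, 338, 153 and 200 CPM in animals 12, 18, 20 and 24 (0.92 ± 0.21, adjusted p = 0.0244, and 0.116 without animal 12). It lost its call without animal 18 as well. Beside this, 10 endothelial markers summed to 538 to 956 CPM in controls and to 1340, 893, 670 and 686 CPM with linrodostat. PECAM1 was the only one called in edgeR (DESeq2 called 2 and limma-voom 1). The 9 fibroblast markers summed to 1154 to 3252 CPM in controls and to 3818, 3737, 1342 and 2062 CPM with linrodostat, and none was called in edgeR, DESeq2 or limma-voom (2 had an unadjusted p under 0.05). Most of this sum was collagen RNA. COL1A1 and COL3A1 had means before TMM scaling of 536 and 759 CPM in controls and 781 and 1240 with linrodostat. All 9 had a log2 fold change above 0 (median 0.37), with 0.05 for DCN. Of 22 collagen and matrix genes 21 had a log2 fold change above 0 (median 0.61, beside 0.11 without drug), but the protease ADAMTS1 alone was called in edgeR (0.90 ± 0.23, adjusted p = 0.0436, and 0.136 without animal 12). DESeq2 called 2 of the 22 and limma-voom 0. ADAMTS1 kept its call only without control 14 or animal 20. The protease inhibitor TIMP1 did not pass (0.88 ± 0.35, adjusted p = 0.213). The part of endothelial cell and fibroblast content in these values was not tested. In smooth muscle, calponin CNN1 had 56.9, 53.1, 115 and 111 CPM against 11.5 to 39.4 in controls (1.56 ± 0.33, adjusted p = 0.0196, and 0.0814 without animal 24), and TAGLN was higher by 0.85 ± 0.21 (adjusted p = 0.0356, and 0.0921 without animal 12). CNN1 lost its call without animal 20 too, and TAGLN kept its call only without control 1 or 4. The 11 smooth muscle markers summed to 4240 to 6152 CPM in controls and to 4492, 4659, 8003 and 6915 CPM with linrodostat. DES, the gene of desmin, made up most of that sum. Its mean before TMM scaling was 4620 CPM in controls and 4950 with linrodostat, so the sum does not give the level of the other markers. TAGLN was highest in animals 12 and 18, at 148, 139, 121 and 98.4 CPM in the 4 animals, and CNN1 in animals 20 and 24. MYLK did not pass (1.00 ± 0.29, adjusted p = 0.0752).

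Both sets of bypass animals were set against the same 8 controls, so their calls are not independent, and the drug and the set of animals cannot be told apart between them. Bypass without drug gave 1775 calls, 951 higher (6.39% of the genes tested) and 824 lower (5.53%), or 11.9% in all. Called the same way in both sets were 256 genes, 135 higher and 121 lower, which is 84.2% of the 304 linrodostat calls and 14.4% of the 1775, and none was called opposite ways. The changes that both sets showed included PDLIM3, SYNPO2, PDLIM5, ACTC1, ATP2A2, GJA5, PDE4B, PDE4D, GRK5, PRKAR1A, TANC1, NPNT, CD163, CD14, SLC11A1, HMOX1, CRYAB and CNN1 among the higher genes. Among the lower genes they included ASB18, KBTBD13, SH3RF3, RCOR2, MVD, AZIN2, EHHADH, NR3C1 and TNIP1. The 256 genes were 66 without linrodostat animal 24, 125 without animal 20, 169 without animal 12 and 160 to 167 without control 7, 10, 14 or 15, and DESeq2 gave 537. The median standard error was 0.201 without drug and 0.238 with linrodostat, and the sets held 7 and 4 animals. The part of these in the number of calls was not tested.

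**Figure D4:**
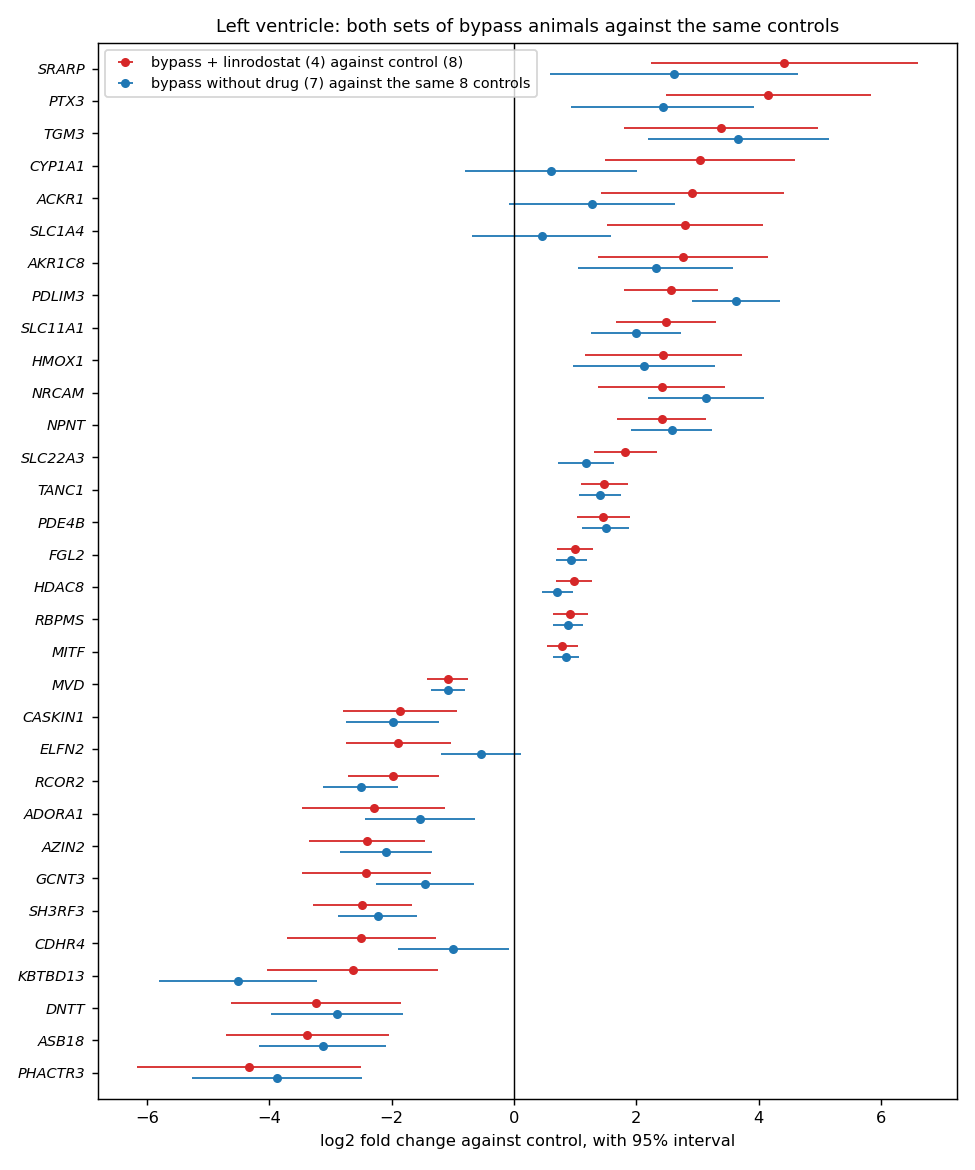
Log2 fold changes against control with 95% intervals for the genes with the 12 highest and 12 lowest changes and the 10 smallest p-values in the linrodostat comparison, in red, beside those of bypass without drug, in blue. Every gene lies on the same side of 0 in both sets, and the blue intervals of CYP1A1, SLC1A4, ACKR1 and ELFN2 reach across 0.

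The remaining 48 linrodostat calls, 26 higher and 22 lower, were not called in bypass without drug, and 47 of them had the same sign there. UBE2D1, a ubiquitin-conjugating enzyme with near-identical relatives between which reads could be split, was the exception, at -0.64 ± 0.16 with linrodostat (adjusted p = 0.0448) and 0.08 without it. Linrodostat hearts had 22.3, 21.4, 19.2 and 21.9 CPM, all below the lowest control at 26.2. LPIN1, the phosphatidate phosphatase lipin 1, had 27.8, 18.5, 14.2 and 22.01 CPM with linrodostat, below all controls (36.5 to 61.9 CPM), and log2 fold changes of -1.25 ± 0.27 (adjusted p = 0.0198, and 0.0705 without animal 20) with and -0.46 without drug. The LPIN1 call was lost without animal 18 or 24 too, and that of UBE2D1 without 10 of the 12 animals in turn (all but control 1 and control 26). Also among the 48 were PYCR1, SLC1A4, AARS1, MARS1, IARS1, SARS1, CYP1A1, ACKR1, CEBPD, PECAM1, ADAMTS1, TAGLN, EGLN3, ELFN2 and CDHR4. A call in 1 set alone does not show a difference between the sets, which the test of linrodostat against bypass without drug addresses and which shares no control animal.

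That test called none of the 14890 genes in edgeR (0.00%). The smallest adjusted p was 0.5, although 901 genes had an unadjusted p under 0.05, and limma-voom called 0. DESeq2 called 16, of which 5 were higher and 11 lower with linrodostat, and HSPB1, SHISA4, SESN2 and UBE2D1 were among them. The difference between the sets was 0.07 (interval -0.34 to 0.49) for TANC1, -0.04 (-0.50 to 0.42) for PDE4B, -0.01 (-0.34 to 0.32) for MVD and 0.30 (-0.35 to 0.96) for ACTC1. These genes were called the same way in both sets, and TANC1, PDE4B and MVD were named for small p-values against control. That choice itself bears on the difference. These intervals, not adjusted for the number of genes, therefore do not limit how far the sets could lie apart. For PDLIM3 the difference was -1.06 (-1.89 to -0.22, adjusted p = 0.787), for XIRP1 -0.77 (-1.27 to -0.27, adjusted p = 0.787) and for SYNPO2 -0.46 (-0.92 to -0.01, adjusted p = 0.82). XIRP1 was not called in linrodostat against control. Of the 31 Z-disc genes 23 were lower with linrodostat than without it, and of the 29 heat shock genes 23 were, with median differences of -0.26 and -0.30, beside -0.01 over all genes. In edgeR none of these passed, and in DESeq2 HSPB1 did. Other lists lay the opposite way: 20 of 22 collagen and matrix genes, 10 of 10 endothelial markers and 8 of 9 fibroblast markers were higher with linrodostat than without it (medians 0.46, 0.40 and 0.21), none passing in edgeR or DESeq2.

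The 4 linrodostat animals differed among themselves. Over all genes tested, animals 20 and 24 held the highest pair of levels in 25% and animals 12 and 18 in 26.3%. SLC1A4, a transporter of neutral amino acids (chromosome 3, 76938102 to 76970519), had 2.96 to 9.23 CPM in controls, 3.49 to 17.3 in bypass without drug and 4.79, 6.92, 116 and 32.6 CPM in animals 12, 18, 20 and 24. Its log2 fold change was 2.79 ± 0.61 (adjusted p = 0.0247, and 0.229 without animal 20), and removing animal 24 ended the call as well. The other genes of this paragraph were picked out after their values were seen, and no list of them was tested. The tRNA ligase genes AARS1, MARS1, IARS1 and SARS1, which charge tRNA with amino acids, had log2 fold changes of 1.23, 0.96, 0.84 and 0.84 (adjusted p = 0.0367, 0.0259, 0.036 and 0.0487). AARS1 had 57.8 to 98.4 CPM in controls and 73.0, 76.3, 325 and 223 CPM in the 4 animals, and its adjusted p was 0.219 without animal 20. All 4 ligases lost their calls without animal 20 or 24, and AARS1, IARS1 and SARS1 also without 5, 6 and 8 of the controls. PYCR1, an enzyme of proline synthesis, had 4.87, 5.21, 18.7 and 12.9 CPM, all above the controls (2.02 to 4.28 CPM), and with SLC7A1, a transporter of basic amino acids, it kept its call with any 1 of the 12 animals left out (1.86 ± 0.31, adjusted p = 0.00395, and 1.62 ± 0.28, adjusted p = 0.00562). SESN2, a sensor of leucine shortage, had 2.34, 2.03, 44.9 and 9.49 CPM and did not pass against control (2.09 ± 0.57, adjusted p = 0.0606), nor did PHGDH (1.69, adjusted p = 0.133) or SLC3A2 (1.13, adjusted p = 0.0577). None of 25 unfolded protein and integrated stress response genes was called in edgeR (6 had an unadjusted p under 0.05, DESeq2 called 2 and limma-voom 0).

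Some genes were highest in animals 12 and 18. They included PTX3, CD163, PECAM1 and CEBPD, given above, and ACKR1, the chemokine-binding Duffy receptor of venules, with 6.06, 10.6, 0.865 and 0.349 CPM against at most 1.11 in controls (2.92 ± 0.72, adjusted p = 0.0394, and 0.175 without animal 18). ACKR1 kept its call only without control 13 or animal 20 or 24. These genes were grouped after their values were seen. Beside them, 14 T and NK cell markers summed to 68.4, 104.5, 10.1 and 15.8 CPM in animals 12, 18, 20 and 24 and to 25.3 to 154 CPM in controls, and the endothelial, fibroblast and macrophage sums given above were also highest in animals 12 and 18. The part of these cells in the values was not tested. Each pair held 1 male and 1 female. No label tells the pairs apart, and a cause was not tested.

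**Figure D5:**
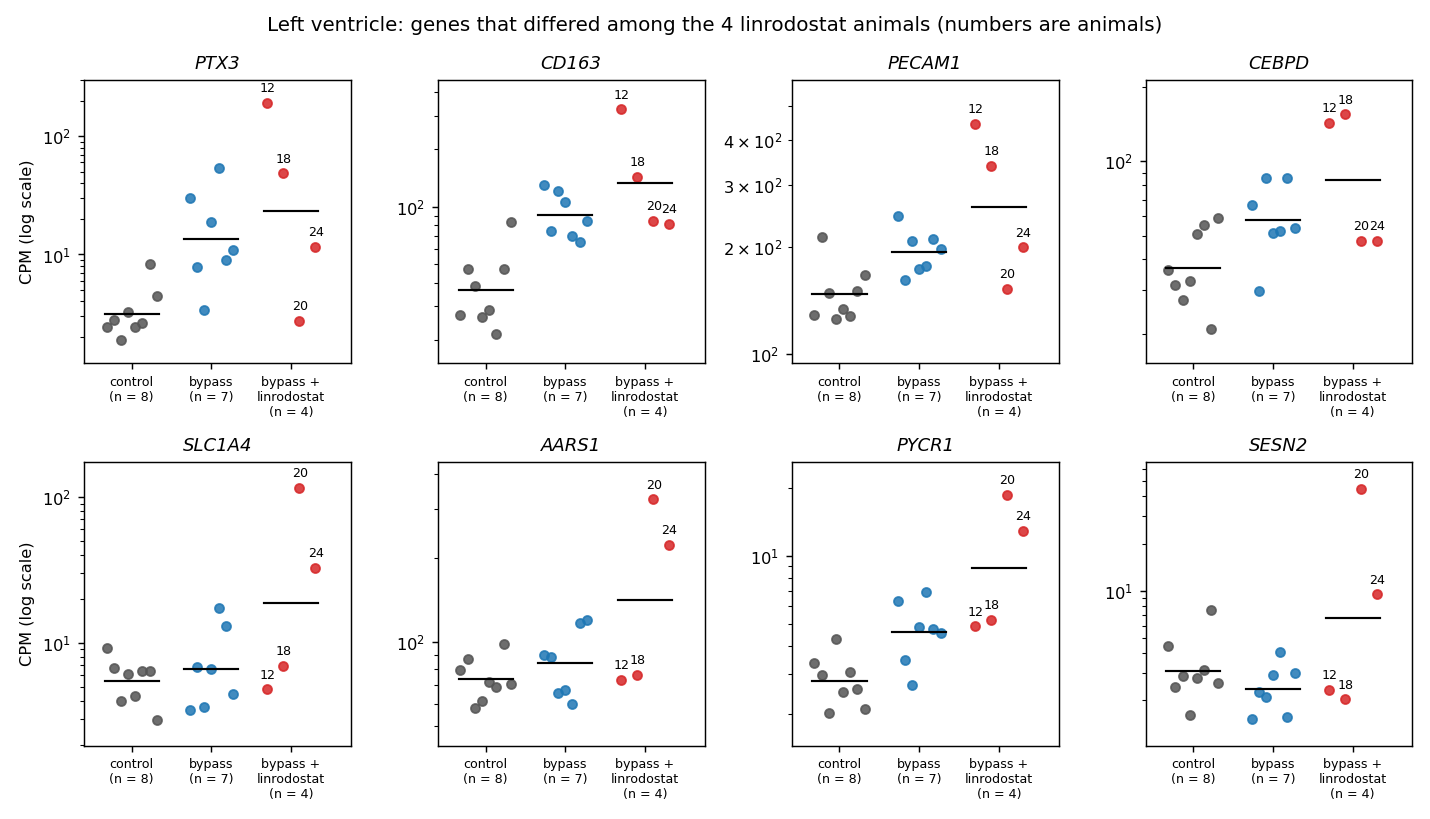
Levels of 8 genes in CPM on a log axis, with 1 point per animal, a bar at the geometric mean of each arm and the numbers of the linrodostat animals. In the upper row animals 12 and 18 are the highest of the 4, and in the lower row animals 20 and 24 are.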

How the data were processed

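Poly(A) RNA of left ventricle was sequenced in pairs of reads, per the labels' protocols. The authors deposited estimated counts (expected counts) per Ensembl gene, not scaled for depth or length. The submitters' processing notes name STAR, Salmon, Trim Galore and the Sscrofa11.1 build, and the program behind the counts and the annotation release are not given in the sources used here. Counts were rounded. Over all 35670 genes, those with no count included, 95.3 to 96.6% of values per heart were whole. Between 16367 and 18262 genes per heart had a count above 0, so the share among these was lower. In R 4.3.3 with edgeR 4.0.16, all 19 heart libraries were fitted together (filterByExpr by group, TMM, robust quasi-likelihood F test), and 3 contrasts were taken, each adjusted over 14890 genes by Benjamini-Hochberg. The biological coefficient of variation was 0.353. Levels are TMM-scaled CPM. On simulated data 71% of 2-fold and 95% of 4-fold changes were recovered in linrodostat against control. These changes were placed only in genes with a mean of at least 2 CPM, and each gene had the same spread in all arms. Recovery at lower levels was not simulated. Libraries are separate animals. Alternatives were RLE and upper quartile normalisation, DESeq2 1.42.0, limma-voom (limma 3.58.1), a fit of the compared groups alone, sex in the model, no filter on low counts, and each library left out in turn.

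Named genes are the 12 highest and 12 lowest called fold changes (mean of at least 2 CPM), the 10 smallest p-values, up to 3 called genes per list with the largest change, and 28 fixed genes; other list members and genes are named as examples after their values were seen. The 24 gene lists, 17 marker lists and this comparison were chosen with earlier results of these data known. Positions are from RefSeq by symbol. No sequence tables were used here, so the promoter description that was planned was not run.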

Additional observations from a re-analysis of the deposited data

Results flagged for a closer look

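In 11 of 318 sets of values (1 gene in 1 arm, 3.46%), 1 animal stood far from the rest of its arm by the gap between neighbours over the range, a test that flags about 1 in 20 sets by chance. Control 15 accounted for 4 of them: HMOX1 was 34.2 CPM there and at most 5.92 in the other controls, RCOR2 was 10.1 and at least 21.6 elsewhere, EGLN3 was 33.6 and at least 48.0 elsewhere, and NMRK2 was 43.9 and at least 70.0 elsewhere. This heart also had the highest ISG15. Without it the linrodostat comparison gave 183 calls instead of 304, and without control 14, 7 or 10 it gave 183, 185 or 190. Among the linrodostat hearts, DNTT was 0.00 CPM in animal 24 and at least 0.247 in the others, and NRCAM, a neural adhesion molecule that was higher overall (2.41 ± 0.50), was 1.03 CPM in animal 18 and at least 4.95 in the others. CYP1B1 was 3.38 CPM in animal 20 and at least 9.20 in the others. PHACTR3 was 0.333 CPM in control 26 and PLN was 752 CPM in control 10. In bypass without drug, LPL was 445 CPM in animal 19 and at least 917 in the rest, and FKBP5 was 340 CPM in animal 2 and at most 173 in the rest.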

How the results depend on the processing

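No paired analysis was possible because each arm holds different animals and no number is shared between arms. The 304 calls of linrodostat against control were 693 with DESeq2 and 75 to 396 with 1 library left out. The calls shared with bypass without drug were 537 with DESeq2 and 66 to 347 with 1 library left out, and linrodostat against bypass gave 16 with DESeq2 and 0 to 0 with 1 library left out. Without the low-count filter there were 203 calls, with sex as a covariate 259 and with only the groups compared 433. Calls in bypass without drug ranged from 1257 to 2432. The cause of these shifts was not tested. Higher genes were 53% of calls, 47.1% with only the groups compared, 49.0% with limma-voom, and 62.3 to 65.6% without control 13 or linrodostat animal 18, 20 or 24. Of 67 called genes named here 20 kept their call under all 26 alternatives, and none changed direction. The median of 5 of the 24 lists changed sign under some alternative, none with a median above 0.198 in size. With 4 linrodostat animals, 71% of simulated 2-fold and 95% of 4-fold changes were recovered in genes with a mean of at least 2 CPM. The simulation did not model the differences seen among the linrodostat animals.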
